A study of Mus musculus with 12 samples.

Results

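The chromosome 2 zinc finger cluster is a stretch of 2.77 Mb near the distal end of mouse chromosome 2 that holds many copies of closely related zinc finger genes. Its 10 listed members were chosen by symbol from earlier results of these same data, with no contrast or threshold named, so the levels and differences of the members below are a description and carry no test. Of the 10, 9 had a row among the 35976 gene symbols counted: Gm14391, Gm14434, Gm14308, Gm14305, Gm14295, Gm14412, Gm14403, Gm14325 and Gm14326, in order along the chromosome. Gm14418 was not analysed here. The 26 other symbols that lie between the first and the last member are called neighbours. They were taken by position and tested, but the members, picked from these data, set the span and were left out of it. Several neighbours also share sequence with members, so they are not independent of that choice.

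Pregnant outbred Swiss (RjOrl) mice received the neonicotinoid insecticide thiacloprid (thia) by gavage in oil at 0 or 6 mg/kg/day between E6.5 and E15.5. RNA of embryonic testis was sequenced at E15.5 in 4 groups: F1 control and F1 thia, the directly exposed generation, and F3 control and F3 thia, reached through F1 and F2 males mated with unrelated untreated females, so that the F3 embryos themselves were never dosed. Each group had 3 libraries, each a pool of testes from 3 embryos, and the study's methods say that males of different litters served each assay, without saying which litters entered which pool. The study also repeated the whole breeding, and the labels name no round for a pool. The p-values therefore measure the spread between these pools.

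Zinc finger proteins of the C2H2 type bind DNA through repeated fingers, each held together by a zinc ion between paired cysteines and histidines. In mammals many also carry a KRAB domain, which recruits the corepressor TRIM28 and the histone methyltransferase SETDB1, and many such proteins silence retroelements in the germ line and early embryo. The genes multiply by tandem duplication and so lie in clusters of near copies, where short reads are hard to assign to 1 gene.

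The GENCODE M21 coding sequences of the 9 members encoded 9 (Gm14403) to 25 (Gm14295) C2H2 fingers in proteins of 402 to 834 residues. Gm14434 and Gm14308 each encoded 498 residues with 13 fingers, while Gm14305 and Gm14325, of the same length, each had 14. Gm14412 encoded 526 residues with 15 fingers, Gm14326 had 15 fingers in 554 residues and Gm14391 had 16 in 554. RefSeq lists Gm14412 as a pseudogene and Gm14403 as a long noncoding RNA, although GENCODE lists both as protein coding.

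The promoters show how alike the copies are. RefSeq promoter entries of GRCm38.p6, the build of mm10, run from 250 bases before to 50 after a gene's start, and 8 of the 9 members were matched (Gm14412 was not). Over the 28 pairs of member promoters, identity in a global alignment ran from 59.4% to 100% with a median of 83.1%. Gm14434 and Gm14308 had the same 300 bases. A run of 54 bases was present in all 8, and it is set in capitals in 3 entries chosen to show a member that was higher in F3 thia pools (Gm14403, chr2:177497976-177498275 on the plus strand) and members that were lower (Gm14305, chr2:176708103-176708402 on the plus strand; Gm14325, chr2:177840287-177840586 on the minus strand), all written 5′ to 3′ along the gene.

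Gm14403: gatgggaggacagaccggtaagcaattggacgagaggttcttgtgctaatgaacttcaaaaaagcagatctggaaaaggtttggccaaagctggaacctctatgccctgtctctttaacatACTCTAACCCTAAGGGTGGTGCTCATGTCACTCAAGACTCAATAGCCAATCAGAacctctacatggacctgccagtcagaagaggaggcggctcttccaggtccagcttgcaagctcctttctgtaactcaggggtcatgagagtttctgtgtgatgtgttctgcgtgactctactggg

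Gm14305: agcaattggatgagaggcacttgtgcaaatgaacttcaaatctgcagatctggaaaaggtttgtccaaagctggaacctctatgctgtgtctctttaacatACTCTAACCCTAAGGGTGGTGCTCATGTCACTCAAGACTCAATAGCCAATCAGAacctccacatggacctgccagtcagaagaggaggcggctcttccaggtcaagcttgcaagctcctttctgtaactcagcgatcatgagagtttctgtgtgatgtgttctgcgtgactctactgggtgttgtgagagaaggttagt

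Gm14325: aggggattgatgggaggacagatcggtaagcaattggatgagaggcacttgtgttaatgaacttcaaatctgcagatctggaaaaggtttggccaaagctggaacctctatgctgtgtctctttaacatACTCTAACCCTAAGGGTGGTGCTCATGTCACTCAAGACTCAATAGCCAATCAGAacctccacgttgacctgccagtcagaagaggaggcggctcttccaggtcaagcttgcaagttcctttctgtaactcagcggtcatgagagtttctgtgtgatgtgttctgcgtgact

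Searched on both strands, the run occurred in 21 of the 26 promoters of members and neighbours and in 30 of 32851 entries for all genes, a share of 0.0913%. All 30 were on chromosome 2, and several of them belong to the same gene. Within the member promoters it lay between 149 and 24 bases before the gene start, nearest to the start in Gm14391 and farthest in Gm14305. The run holds 1 copy of CCAAT, the letters of a common promoter element, which on either strand were also in 37.4% of all promoter entries.

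Likeness also reaches the transcripts. Each GENCODE transcript was cut into words of 100 bases, the read length of the study, and a word was called shared when another gene held it too. Gm14412 shared 2.77% of its words and Gm14403 shared 4.95%, so few of their words occurred unchanged in another GENCODE gene. Only exact matches counted, so a near copy with a changed base in each word would not appear as shared. Copies outside the GENCODE transcripts were not searched. Gm14391 shared 36.3%, Gm14295 52.8%, Gm14325 58.3%, Gm14326 61.6% and Gm14305 69.2%.

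Gm14308 shared 96.6% of its words and Gm14434 shared 99.7%. Gm14434 had 96.0% of its words in Gm14308, and Gm14305 had 66.0% of its words in Gm14434. Gm14325 and Gm14326, which lie next to each other but for a pair of neighbours, shared 47.1% of the words of Gm14325. Reads of the members with high shares could be counted for a copy or for no gene, and the handling of such reads is not given in the sources used here.

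**Figure D1:**
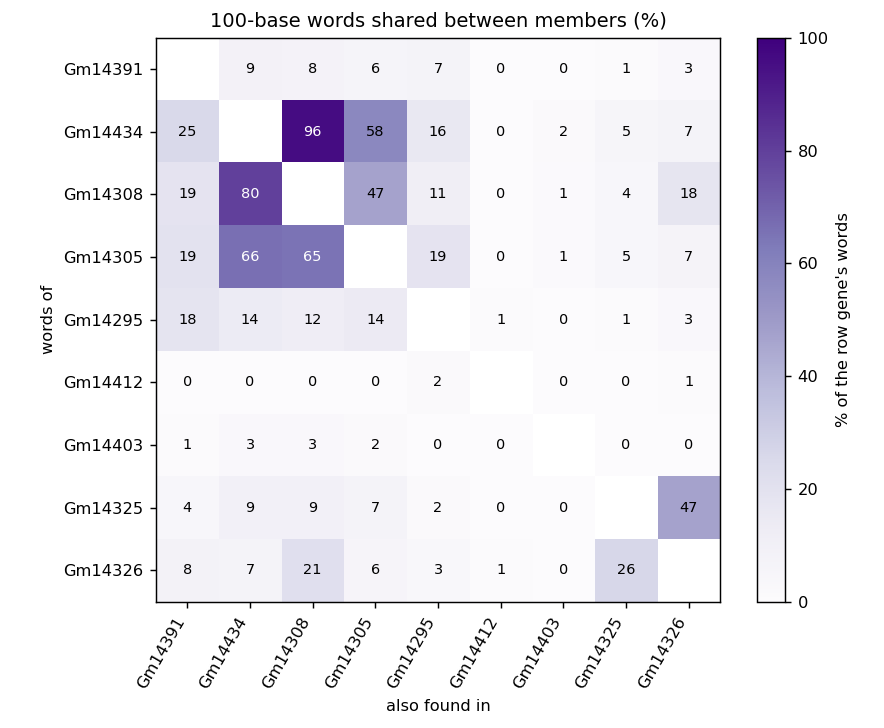
Share of 100-base transcript words of the gene in each row (percent) that also occur in the gene of each column, for the 9 members in order along the chromosome. Gm14434, Gm14308 and Gm14305 form a block of high sharing, Gm14325 and Gm14326 another, and the rows of Gm14412 and Gm14403 are near 0.

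The members differed widely in level. On the scale of CPM (counts scaled to a common library size by TMM) per kilobase of merged exon, averaged over the 12 pools, Gm14325 was at 15.2 and Gm14403 at 10.2, followed by Gm14412 at 6.64, Gm14326 at 5.74 and Gm14305 at 3.72. Gm14295 was at 1.33 and Gm14391 at 0.654. Neighbours in this order overlapped in their ranges over pools down to Gm14305, whose lowest pool (2.83) was above the highest pool of Gm14295 (1.67). The ranges of Gm14295 and Gm14391 overlapped again.

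Gm14308 and Gm14434 were at 0.0445 and 0.0383 CPM per kilobase. Gm14308 had 0 to 17 reads in a pool and Gm14434 had 1 to 7, so neither passed the filter on low counts in any comparison of a pair of groups. By exon length, the 11 members and neighbours of 90% or more shared words had levels of 0.0162 to 0.184, median 0.0445, against 0.00964 to 15.2, median 0.654, in the 19 with less. The part of read assignment in these low levels was not tested. With exon length replaced by the words found in no other gene, an alternative added after the data were seen, Gm14325 was still the highest (38.7), but Gm14326 (15.49) and Gm14305 (12.6) came before Gm14403 (10.4) and Gm14412 (7.29). On that scale Gm14308 was at 1.32, above Gm14391 at 1.02, while Gm14434 had too few words of its own for a value. All counts of a gene, also any from shared words, were divided by its unshared words alone. The value therefore rises with the share of shared words, and the new order cannot show which member was more abundant.

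**Figure D2:**
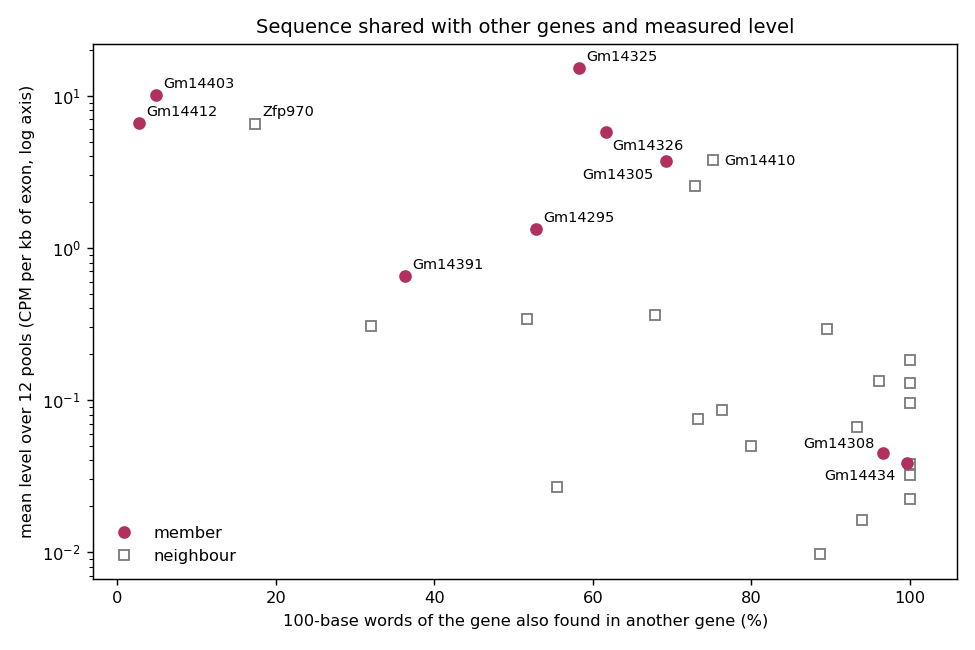
Mean level over the 12 pools (CPM per kilobase of exon, log axis) against the percent of 100-base words shared with another gene, for 9 members (filled circles) and 21 neighbours with a GENCODE transcript (open squares). Gm14412 and Gm14403 sit at the left with high levels, and the 11 genes at 90% or more shared words all lie below 0.2.

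Gm14403 showed the widest spread between groups. It was at 18.9, 16.0 and 11.2 CPM in the 3 F1 control pools and at 20.8, 28.9 and 14.8 in the F1 thia pools. In F3 it was at 7.99, 8.49 and 7.88 in control pools and at 29.3, 16.5 and 20.8 in thia pools. The F3 control pools were the 3 lowest of all 12 and nearly equal to each other, while the F1 groups overlapped.

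Gm14412, which lies in the same stretch of the cluster, followed the same order. It was at 12.03, 10.6 and 8.89 CPM in F1 control pools, at 12.8, 14.6 and 9.18 in F1 thia pools, at 5.33, 6.16 and 5.82 in F3 control pools and at 15.3, 11.5 and 13.7 in F3 thia pools. Here too the F3 control pools were the 3 lowest, and every F3 thia pool was higher than every F3 control pool. F3 thia means were 13.5 ± 1.91 CPM for Gm14412 and 22.2 ± 6.54 for Gm14403, against 5.77 ± 0.418 and 8.12 ± 0.322 in F3 controls (SD, n = 3).

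Gm14305 ran the other way. It was at 12.2, 11.98 and 11.01 CPM in F3 control pools and at 9.87, 9.23 and 8.32 in F3 thia pools, with 8.79, 7.80 and 9.62 in F1 control pools and 8.32, 7.08 and 7.43 in F1 thia pools. The F3 control pools were the 3 highest of the 12. Gm14305 overlaps the neighbour Zfp973 on the same strand, and Zfp973 had at most 24 reads in a pool.

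Gm14325, the most abundant member, was at 29.0, 30.5 and 25.4 CPM in F3 control pools and at 24.4, 21.7 and 23.6 in F3 thia pools. In F1 it was at 23.2, 23.3 and 28.2 in control pools and at 22.7, 22.4 and 19.4 in thia pools. In both generations every thia pool was below every control pool, although the gap in F1 was narrow.

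Gm14391, at the proximal end, had its widest spread in F1 controls, with 4.30, 8.31 and 9.51 CPM against 5.09, 3.29 and 3.82 in F1 thia pools. In F3 it was at 4.81, 5.95 and 4.78 in control pools and 4.22, 4.20 and 3.13 in thia pools. The F1 groups overlapped through control pool 1 and the F3 groups did not overlap.

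Gm14295 was at 5.02, 5.23 and 5.35 CPM in F3 control pools and at 4.97, 3.53 and 3.42 in F3 thia pools, so the F3 groups did not overlap, but thia pool 1 lay just below the lowest control pool. In F1 it was at 4.32, 5.27 and 5.90 against 4.74, 4.76 and 3.79. Gm14326 overlapped between control and thia in both generations, with means of 18.9 ± 4.0 and 15.3 ± 1.31 CPM in F1 and 16.5 ± 1.73 and 15.03 ± 1.91 in F3 (SD, n = 3).

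**Figure D3:**
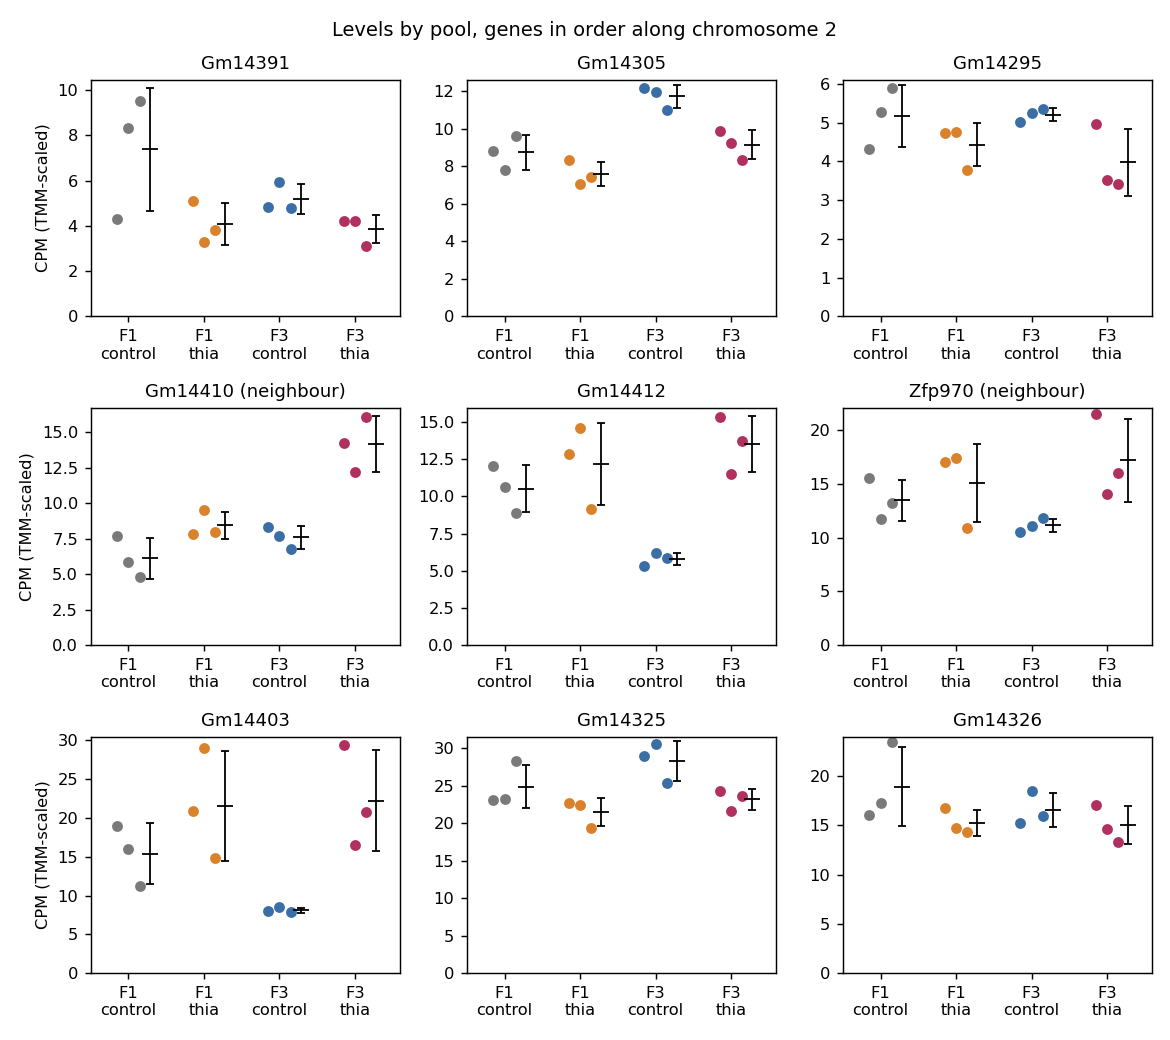
CPM of 7 members and the neighbours Gm14410 and Zfp970 in each of the 12 pools, in order along the chromosome, with 1 point per pool and the group mean ± SD beside the points. F3 control pools (blue) are the lowest group for Gm14412 and Gm14403 and the highest for Gm14305.

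In F1 thia against F1 control, 0 of the 7 members tested were called by edgeR at an adjusted p under 0.15, where 0.0105% of 19137 genes were called, and nothing is read from this count. By DESeq2, 1 of 9 was called (Gm14391), beside 0.639% of all 31148 genes fitted. DESeq2 also fitted genes of few reads that the edgeR filter left out. Its shares of all genes, here and below, thus have a wider base than those of edgeR and may be low for expressed genes. At an unadjusted p under 0.05 edgeR gave 1 of 7, again Gm14391, where 8.76% of all genes passed. Groups did not overlap for 1 of 7, Gm14325, which was lower in thia pools, where 6.01% of all genes were higher and 9.11% lower in this way. The log2 fold changes were -0.84 (SE 0.28) for Gm14391, 0.49 (SE 0.24) for Gm14403 and 0.22 (SE 0.18) for Gm14412, and lay between -0.29 and -0.18 for the 4 others. When single pools were left out, Gm14403 ran from 0.22 to 0.71 and Gm14412 from 0.08 to 0.40, the lowest of each without F1 thia pool 2, while the 4 others stayed below 0 between -0.40 and -0.08, each nearest to 0 without F1 control pool 3. Their median was -0.20, beside 0.01 over all genes tested. In bulk pools, fewer cells of a type and less RNA per cell cannot be told apart.

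In F3 thia against F3 control, 0 of 7 members were called by edgeR at an adjusted p under 0.1, where 0.0% of 18539 genes were called. Gm14403 and Gm14412 did not pass, each at an adjusted p of 0.1006 by edgeR. The adjustment can give 1 value to a run of ranked genes, here to unadjusted p of 1.9e-04 and 6.6e-05 by edgeR. The neighbour Gm14410 and Atp5e, a gene outside the cluster, likewise both stood at 0.105. A value this near to 0.1 is thus not particular to the members. DESeq2 called 4 of 9, with Gm14403 and Gm14412 higher and Gm14305 and Gm14325 lower, beside 7.45% of all 30715 genes fitted. At an unadjusted p under 0.05 edgeR gave 5 of 7, 2 higher and 3 lower, where 21.1% of all genes passed. Groups did not overlap for 6 of 7, 2 of them higher in thia and 4 lower, where the same held for 27.3% of all genes, 16.2% higher and 11.1% lower. The symbols were listed with such values known, so these counts describe the choice.

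The log2 fold changes in F3 were 1.41 (SE 0.21) for Gm14403 and 1.19 (SE 0.15) for Gm14412, which are 2.67-fold and 2.28-fold. Gm14391 was at -0.47 (SE 0.19), Gm14295 at -0.43 (SE 0.19), Gm14305 at -0.40 (SE 0.12), Gm14325 at -0.32 (SE 0.10) and Gm14326 at -0.18 (SE 0.13). When single pools were left out, Gm14403 ran from 1.15 to 1.59 and Gm14412 from 1.08 to 1.29, while Gm14326 ran from -0.29 to -0.10. Since higher and lower members offset each other, the summed level of the 9 members was 91.3 ± 12.6 CPM in F3 thia pools and 81.1 ± 5.38 in F3 control pools, with overlapping ranges (SD, n = 3).

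Along the chromosome, the 2 members that were higher in F3 thia pools lay among neighbours that were also higher. Gm14410 (chr2:177183453-177206421, minus strand), the first of them, was at 8.32, 7.67 and 6.76 CPM in F3 control pools and at 14.2, 12.2 and 16.1 in F3 thia pools. Zfp970 (chr2:177464733-177478129, plus strand) was at 10.6, 11.1 and 11.8 in control and at 21.5, 14.0 and 16.0 in thia pools. Gm14412 (chr2:177314520-177324307, minus strand) lies between them, and Gm14403 (chr2:177498215-177509763, plus strand) follows Zfp970.

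In both neighbours every F3 thia pool was higher than every F3 control pool. Gm14410 differed by 0.87 on the log2 scale (SE 0.15, adjusted p = 0.105 by edgeR) and Zfp970 by 0.59 (SE 0.17, adjusted p = 0.134 by edgeR), so neither passed 0.1. Without F3 thia pool 1, Zfp970 was at 0.38. By DESeq2 both were called, the only 2 of the 25 neighbours it fitted, beside 7.45% of all genes. Gm14410 shared 75.2% of its words with other genes, most often with Gm14308, whereas Zfp970 shared 17.4%.

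Elsewhere the neighbours differed in direction. Higher values that did not pass were those of Gm6710 (0.68, SE 0.39), 2210418O10Rik (0.63, SE 0.42) and Gm14322 (0.51, SE 0.37), the next gene after Gm14403, at adjusted p of 0.362, 0.439 and 0.467 by edgeR, and in all 3 the groups overlapped. Gm14327 was at -1.23 in F3 (SE 0.42, adjusted p = 0.167 by edgeR) and Gm14288 at -1.28 (SE 0.45, adjusted p = 0.172), on counts of 9 to 28 reads and 15 to 58 reads in an F3 pool. Gm14327 overlaps Zfp972 on the opposite strand, and all words of Gm14288 occurred in another gene. Gm14288 was at -0.65 without F3 control pool 1 and Gm14327 at -0.82 without F3 thia pool 3. In all, 0 of the 10 neighbours tested in F3 were called by edgeR and 2 were higher and 2 lower at an unadjusted p under 0.05, where 21.1% of all genes passed. In F1, 0 of 9 were called by edgeR and 0 of 24 fitted by DESeq2. Gm14410 was higher (0.48, SE 0.18, adjusted p = 0.526 by edgeR) and Gm14288 lower (-1.14, SE 0.51, adjusted p = 0.570) at that unadjusted p, where 8.76% of all genes passed. Without F1 control pool 3, Gm14288 was at -0.59. Gm6710, which holds 36.3% of the words of Gm14391, was at -0.75 in F1 (SE 0.61, adjusted p = 0.700 by edgeR) and at 0.41 without F1 control pool 3. In F3 it stood on the other side of 0 from Gm14391, and its value there ran from 0.35 to 1.14 when single pools were left out.

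**Figure D4:**
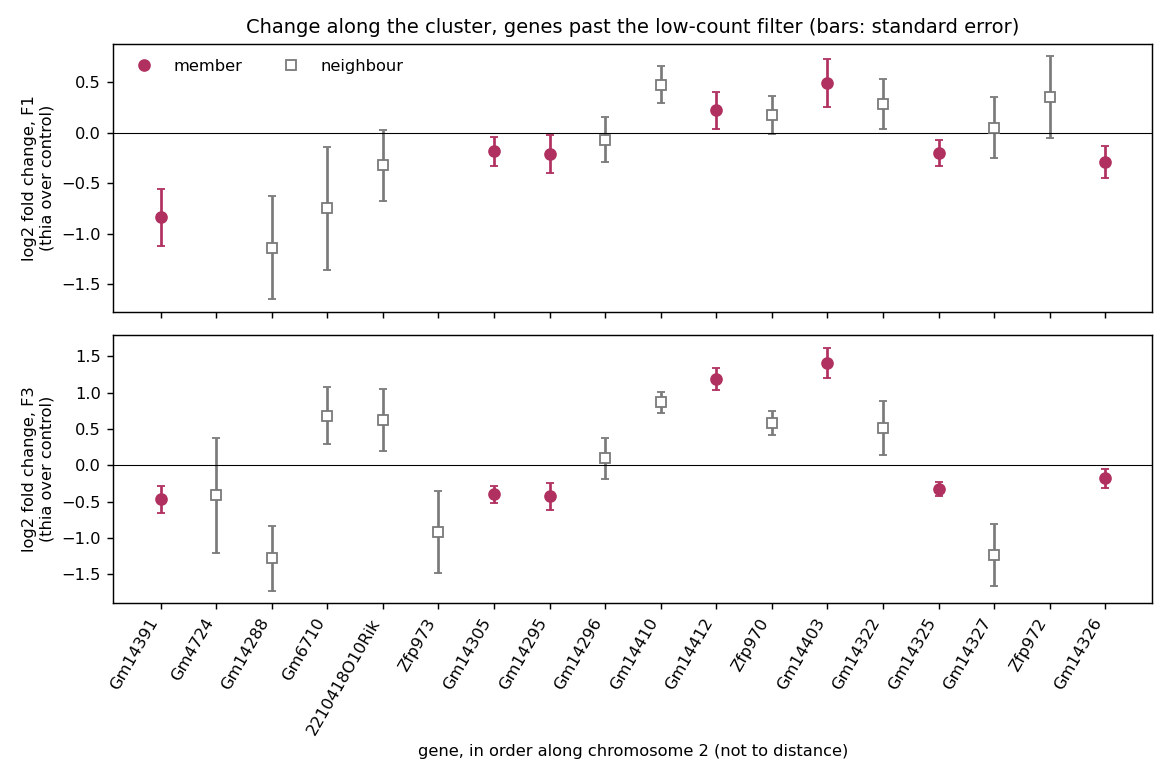
Log2 fold change of thia over control with its standard error in F1 (top) and F3 (bottom) for members (filled circles) and neighbours (open squares) that passed the filter on low counts, in order along the chromosome and not to distance. In F3, Gm14410, Gm14412, Zfp970 and Gm14403 stand above 0 side by side. The neighbours plotted next to them, Gm14296 (0.10, SE 0.28) and Gm14322 (0.51, SE 0.37), are also above 0. The nearest members beyond these are below 0.

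The control pools of the generations also differed. In F3 control against F1 control, Gm14412 was at -0.81 (SE 0.15), Gm14403 at -0.87 (SE 0.18) and Gm14305 at 0.48 (SE 0.14) on the log2 scale. Those were the 3 of 7 members called by edgeR at an adjusted p under 0.1, a rule that 43.2% of 18588 genes met. The same 3 were at an unadjusted p under 0.05, where 44.7% of all genes were, and did not overlap between groups, where 50.7% did not. Among the 9 neighbours tested by edgeR, 0 were called and 0 were at an unadjusted p under 0.05. DESeq2 fitted 23 neighbours and called 2 (Gm4724 and Zfp973, both higher in F3), where it called 25.4% of all genes. Neither of these passed the low-count filter of edgeR here. Gm4724, with 96.1% of its words shared, had 42, 20 and 2 reads in the F3 control pools. Its F3 control pool 3 (0.0522 CPM) was below every F1 control pool (0.185 to 0.219). Generation and any difference in preparation or sequencing cannot be told apart here.

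Both F3 comparisons rest on the same F3 control pools. For Gm14403 the F3 thia pools (22.2 ± 6.54 CPM) stood near the F1 thia pools (21.5 ± 7.08), with F1 control at 15.4 ± 3.89. For Gm14412 the F1 control mean was 10.5 ± 1.57 CPM and the F1 thia mean 12.2 ± 2.75. For Gm14305 the F3 thia mean (9.14 ± 0.779) was near the F1 control mean (8.74 ± 0.911) (SD, n = 3).

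The difference of the thia effect, F3 minus F1, was 0.98 (SE 0.25) for Gm14412 and 0.94 (SE 0.36) for Gm14403. By edgeR 0 of 8 members were called for it at an adjusted p under 0.1, where 0.0051% of 19626 genes were, and 2 passed an unadjusted p under 0.05, where 14.0% did. DESeq2 called 1 of 9 (Gm14412), beside 1.97% of all genes. Of neighbours, 0 of 11 tested by edgeR and 0 of 25 fitted by DESeq2 were called. By edgeR 1 passed the unadjusted p, Gm14327 at -1.26 (SE 0.51, adjusted p = 0.303 by edgeR).

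Over the 12 pools, Gm14412 and Gm14403 were each other's nearest match among 19576 genes, with Pearson r of 0.98 and Spearman rho of 0.99 for log2 CPM. With each group centred on its own mean, r between them was 0.95, and Zfp970 followed them at 0.84 (Gm14412) and 0.80 (Gm14403). Gm14410 stood at 0.60 and 0.67, and Gm14325 at 0.23 and 0.16. All values share the same 12 libraries, so they are a description. Next most alike to both was Zfp619, a further zinc finger gene, with r of 0.93 and 0.94.

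The other members matched genes outside the cluster best. Gm14305 followed Mkks (r 0.95) and Zfp931 (r 0.95), which lies within 1 Mb beyond the cluster. Gm14391 followed Stx7 (r 0.96), Gm14326 followed Smurf2 (r 0.95), Gm14325 followed Gm36585 (r 0.92), Gm14295 followed Gm36254 (r 0.90) and Gm14308, with few reads, followed Rrp1 (r 0.92).

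Other zinc finger genes and the silencing machinery give the setting. Of 373 further Zfp symbols, 364 were tested in F1, where 2 were higher and 29 lower at an unadjusted p under 0.05 by edgeR with 0 called at an adjusted p under 0.15, and the median was -0.10. Among all genes 8.76% passed that unadjusted p. DESeq2 called 2 of them in F1, both lower, beside 0.639% of all genes, and 35 in F3, 21 higher and 14 lower, beside 7.45%. By edgeR in F3, of 362 tested, 31 were higher and 40 lower at that p, where 21.1% of all genes passed, 0 were called, and the median was -0.06. The members' F3 median was -0.32 beside 0.00 over all genes, but it joins members of opposite sign.

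Of 22 genes listed as cofactors of KRAB zinc finger silencing, 0 were called by edgeR in F1 or F3. The list also holds Zfp445, Zfp57 and Zfp809, which are zinc finger genes themselves and are counted among the further Zfp symbols too. In F1 4 were lower and 0 higher at an unadjusted p under 0.05, where 8.76% of all genes passed. Among them were 2810474O19Rik (-0.42, SE 0.14), Morc3 (-0.31, SE 0.11) and Zfp445 (-0.29, SE 0.12), each at an adjusted p of 0.514 to 0.556 by edgeR. In F3 3 were higher and 1 lower, where 21.1% of all genes passed, with Chd3, a chromatin remodeller, at 0.60 (SE 0.19, adjusted p = 0.153 by edgeR) and Dnmt1, the maintenance DNA methyltransferase, at 0.36 (SE 0.12, adjusted p = 0.167). Atf7ip, a partner of SETDB1, was at 0.21 (SE 0.08, adjusted p = 0.196 by edgeR). DESeq2 called 0 cofactors in F1 and 2 in F3, Chd3 and Dnmt1, beside 0.639% and 7.45% of all genes. In F3 control against F1 control, Chd3 was at -0.71 (SE 0.17) and Dnmt1 at -0.88 (SE 0.11). There edgeR called 10 of 22 cofactors at an adjusted p under 0.1, all lower in F3, where 43.2% of all genes were called.

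Within 1 Mb outside the cluster 19 genes were tested in each generation and 0 were called by edgeR, with 1 higher and 1 lower in F1 and 1 higher and 3 lower in F3 at an unadjusted p under 0.05, where 8.76% and 21.1% of all genes passed. Atp5e was at -0.60 in F3 (SE 0.12, adjusted p = 0.105 by edgeR) and Ctsz at 0.29 (SE 0.07, adjusted p = 0.113). In F1 Sycp2, a gene of the meiotic chromosome axis, was at -0.94 (SE 0.30, adjusted p = 0.507 by edgeR) and Ctsz at 0.23 (SE 0.10, adjusted p = 0.556). DESeq2 fitted 31 of the flanking genes in F1 and 29 in F3. It called 1 in F1, Sycp2, and 3 in F3, Atp5e and Zfp931 lower and Ctsz higher, beside 0.639% and 7.45% of all genes.

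Libraries held 25081647 to 68996146 counted reads, so 1 CPM on the TMM scale stood for 27.4 to 66.1 reads. All 10 Sertoli cell, 7 fetal Leydig cell and 8 germ cell markers were found, and none of any marker list was at 0. In F3 the summed level of 7 Leydig markers was 4035 to 7309 CPM in thia pools and 2263 to 3715 in control pools, that of 6 endothelial markers 236 to 283 against 153 to 174, and that of 5 adrenal markers 52.6 to 113 against 32.7 to 48.7, with no overlap. In F1 5 macrophage markers (65.8 to 78.3 against 53.6 to 62.2 CPM) and 5 mesonephric markers (84.4 to 115 against 66.5 to 83.8) were higher in thia pools, adrenal markers were lower (26.6 to 38.0 against 42.1 to 59.9), and 7 skeletal muscle markers reached 529 in F1 thia pool 2. Blood markers were at 4385 to 15160 CPM in F1 and 34380 to 71420 in F3. F3 controls also had less than F1 controls of the Sertoli (797 to 1049 against 1631 to 1829), germ cell (591 to 911 against 1046 to 1431) and endothelial markers (153 to 174 against 233 to 279). They had more of the macrophage (102 to 167 against 53.6 to 62.2) and mesonephric markers (93.1 to 116 against 66.5 to 83.8). The part of these cell types in the members' levels was not tested.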

How the data were processed

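RNA of 12 pools of E15.5 embryonic testis was sequenced in paired-end mode after strand-specific library preparation. The deposited files hold raw read counts per gene symbol, which the authors made with bcl2fastq 2.20.0.422, HISAT2 2.1.0 on mm10 and featureCounts with a UCSC refGene annotation. Whether reads or pairs were counted and how multi-mapping reads were handled are not given in the sources used here.

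Counts were tested in edgeR 4.0.16 (R 4.3.3) by the quasi-likelihood test with TMM scaling, filterByExpr at a minimum count of 10 and Benjamini-Hochberg adjustment over all genes tested, with thresholds of 0.15 in F1 and 0.1 elsewhere. DESeq2 1.42.0 was an alternative, with its shares taken over all genes that it fitted, including genes of few reads. CPM used the TMM scale of all 12 libraries, and correlations log2 CPM at a prior count of 2. Both tools were tested on simulated counts.

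The members and lists were chosen with earlier results of these data known. Named were all members, neighbours called or among the 3 of smallest p in each comparison of a pair of groups, the 2 flanking genes and 3 cofactors of smallest p per thia comparison, and for each member the 3 most alike genes, the first of them printed here for most members. Gm4724, Zfp973, Gm14296, Gm14322, 2210418O10Rik and the flanking Zfp931 as a DESeq2 call were named after their values were seen. Gene positions are from GENCODE M21, with RefSeq used for symbols it lacks. Promoter sequences are from RefSeq (GRCm38.p6), and alignment used Biopython 1.88. Same-numbered control and thia pools did not deviate together (r from -0.37 to 0.20), and the labels name no pairs, so the numbers were not taken as pairs. With so few pools, these r values cannot exclude a pairing. Replicates of a group differed by more than counting noise (chi-square per degree of freedom 17.3 to 101).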

Additional observations from a re-analysis of the deposited data

How the results depend on the processing

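Members called in F1 moved from 0 to 1 by DESeq2 and to 1 with no filter on low counts (Gm14391). Members called in F3 moved from 0 to 4 by DESeq2, 2 with no filter, 2 with bias-adjusted deviances, 3 with all 12 libraries in 1 fit and 0 to 2 when single pools were left out, the 2 coming without F3 thia pool 2. Members called for the difference moved from 0 to 1 by DESeq2, and those called between controls stayed at 3 to 4 when single pools were left out. Neighbours called in F3 moved from 0 to 2 by DESeq2, 1 with no filter, 2 with all 12 libraries and 0 to 2 when single pools were left out, again through F3 thia pool 2 (Gm14410 and Zfp970). Between controls they moved from 0 to 2 by DESeq2, 2 with no filter, 2 with all 12 libraries and 0 to 2 when single pools were left out, with calls without any 1 of the F1 control pools and without F3 control pool 2 or 3. The cause was not tested.

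Among the neighbours followed, signs turned for 3 with few reads when single pools were left out. Over those fits the log2 change of Gm14288 between controls ran from -0.094 to 1.06 and its difference of effects from -0.675 to 0.502, that of Gm14327 in F1 from -0.064 to 0.241, and that of Gm6710 from -1.19 to 0.412 in F1 and from -1.26 to 0.356 between controls. DESeq2 size factors in edgeR changed no count of members or neighbours called. The fit with the replicate number as a block left these counts at 0 in F1, F3 and the difference, and turned the difference of Gm14288 to 0.088. Among all genes it called 3 in F1 against 2 without it. Whether the numbers pair the pools is not given in the labels. Summing neighbours with the members moved the log2 ratio of summed levels in F3 from 0.17 to 0.28. An order by exons not repeated in the genome was not run.

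In the shallowest library 1 CPM stood for 27.4 reads on the TMM scale. At 0 to 17 reads in a pool, Gm14308 and Gm14434 did not pass the filter in the comparisons of a pair of groups. Gm14308 passed it only in the fits of 12 libraries or with a pool left out, and its difference of effects was -0.57 (SE 1.17), wider in error than in size, and 1.05 without F3 control pool 3. DESeq2 and the fits with no filter took in both.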
